A study of Saccharomyces cerevisiae with 10 samples.

Results

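The genes described here encode the enzymes of the citric acid cycle, the glyoxylate cycle and gluconeogenesis, together with the pyruvate carboxylases, acetyl-CoA synthetases and carriers that feed these pathways. A gene was included when the platform annotation gave its symbol to a Saccharomyces cerevisiae probe set of the expression array. All 34 genes sought were found, with 1 probe set each, among 5449 S. cerevisiae genes measured. They comprised 17 genes of the citric acid cycle, 8 of the glyoxylate cycle and extramitochondrial isozymes, 4 of gluconeogenesis and pyruvate carboxylation, and 5 of acetate activation and metabolite transport.

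In the citric acid cycle, acetyl-CoA is condensed with oxaloacetate and oxidised in the mitochondrial matrix. The glyoxylate cycle bypasses the decarboxylating steps through isocitrate lyase and malate synthase, so that acetate or ethanol can supply carbon for sugar synthesis by way of phosphoenolpyruvate carboxykinase and fructose bisphosphatase. Cells growing on glucose ferment, and many of these genes are then repressed until the activators Cat8, Sip4, Adr1 and the Hap complex come into play.

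RNA came from a single haploid strain passing through a growth regime of salt stress and recovery at 30 °C in rich medium with 2% glucose, and was hybridised to Affymetrix Yeast Genome 2.0 arrays. Sample A was taken from log phase cells under normal growth, Sample B 1 h into 1 M KCl during stress adaptation, and Sample C in the same medium once adapted cells had multiplied. Sample D was taken 1 h after the return to medium lacking KCl during stress recovery, and Sample E a further 2 to 3 generations later, after stress recovery. The labels name the genetic background BQS1350, and the methods describe a MATα BY4742 derivative in which Gcn5 carries a MYC13 tag. All 5 samples shared that strain, and each was represented by 2 arrays from culture batches grown on separate occasions, which limits the precision of every value below (n = 2 arrays per sample).

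Values are log2 expression values as deposited, and a difference of 1 is a 2-fold change. MATα markers read 10.35 to 14.06 and MATa markers 5.22 to 8.38 over the 10 arrays. The genotype in the methods carries mutant alleles of HIS3, LEU2, LYS2 and URA3. Of these, HIS3 read 10.21 to 11.58, whereas LEU2, LYS2 and URA3 read 3.62 to 5.99. Between 5229 and 5365 genes per array exceeded the 95th percentile of the probe sets of other yeast species, which served as a background level. All 34 pathway genes did so on at least 2 arrays and 31 on all 10, the others being SFC1 (2 arrays), FBP1 (9) and MLS1 (9). Replicate arrays differed most in Sample B (root mean square 1.04 over all genes), where the other samples gave 0.324 to 0.483. The Sample B arrays also had the highest 3′ minus 5′ differences for the 25S rRNA control (2.42 and 3.86, against 1.76 to 2.25 on the other arrays). For the 18S rRNA control they had the lowest (−2.93 and −3.465, against −2.638 to −1.205). The mRNA controls were mixed: EAF5 was highest on both (1.156 and 1.305), and ACT1 was lowest on replicate 1 (0.175) and highest on replicate 2 (0.56). The part of these differences in the results was not tested. An array reads RNA as a share of the pool, so that more transcript of a gene and less of other RNA per cell cannot be told apart.

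The first comparison asked which of these genes changed 1 h after entry into KCl. Without a term for the culture batch, 3 of the 34 genes were called higher in Sample B and none lower (limma, adjusted p under 0.05), where 3.51% of all genes were called higher and 0.899% lower. They were MLS1, PCK1 and ADY2, which act in the glyoxylate cycle, in gluconeogenesis and in acetate uptake. When the culture batch was included as a block, 13 of 34 were higher and none lower, against 8.11% of all genes called higher and 2.59% lower. The additions were CIT1, CIT3, KGD1, LSC2, SDH1, ICL1, FBP1, PYC1, ACS1 and SFC1. Group means differed by 1.8-fold or more upwards for 15 of 34 genes (12.4% of all genes), and for 20 of 34 both Sample B arrays lay above both Sample A arrays (23.1% of all genes). No pathway gene was 1.8-fold lower (5.54% of all genes). The median log2 difference was 0.75 over the 34 genes and 0.08 over all genes. Leaving out any 1 array of Samples A, C, D or E ended all 3 calls made without the block, and with the block 2 to 7 genes were then called.

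MLS1 (YNL117W) encodes malate synthase, which joins glyoxylate and acetyl-CoA. Its values were 7.05 and 8.25 on the Sample B arrays, against 5.65 and 5.90 on the Sample A arrays. The Sample B arrays both lay above Sample A, by 1.40 in replicate 1 and 2.35 in replicate 2. The log2 difference was 1.87 ± 0.37 (SE, a 3.66-fold rise, adjusted p = 0.0297, and 0.00733 with the block). Replicate 1 of Sample A was not above the background level for MLS1 (5.68 on that array), so the fold rests in part on a value at background. ICL1 (YER065C), encoding isocitrate lyase, which opens the glyoxylate shunt, read 8.54 and 8.96 in Sample B, against 7.82 and 7.17 in Sample A. The groups did not overlap, and the difference of 1.25 ± 0.31 passed only with the block (adjusted p = 0.0572 without it and 0.0323 with it).

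PCK1 (YKR097W) encodes phosphoenolpyruvate carboxykinase, the first committed enzyme of gluconeogenesis. It read 9.01 and 9.02 in Sample B, against 7.82 and 7.92 in Sample A, and the groups did not overlap. The difference was 1.15 ± 0.25 (SE, 2.21-fold, adjusted p = 0.0401, and 0.0214 with the block), and the call was lost when arrays were quantile normalized (adjusted p = 0.107) or centred on their medians (0.057). FBP1 (YLR377C), the fructose bisphosphatase gene that acts nearer the end of the pathway, read 8.08 and 6.60 in Sample B, against 5.84 and 5.20 in Sample A, where replicate 2 was not above background (5.40). Sample B was higher in both batches although its arrays stood 1.48 apart, and the difference of 1.82 ± 0.56 passed with the block (adjusted p = 0.0435) but not without it (0.11).

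ADY2 (YCR010C) encodes an acetate transporter of the plasma membrane and had the largest difference of the 34 genes. Values of 7.77 and 9.30 in Sample B stood against 6.54 and 6.22 in Sample A. The groups were separated in both batches, by 1.24 and 3.08, giving a log2 difference of 2.16 ± 0.44 (SE, 4.47-fold, adjusted p = 0.033, and 0.0153 with the block). ACS1, the acetyl-CoA synthetase that is repressed by glucose, read 10.74 and 10.45 in Sample B, against 9.71 and 9.28 in Sample A. Its difference of 1.10 ± 0.27 was similar in both batches (1.03 and 1.17) and passed with the block (adjusted p = 0.0274 with it and 0.0593 without it). SFC1, the mitochondrial carrier that exchanges succinate for fumarate, lay near background at 5.58 and 5.91 in Sample B, against 4.97 and 4.93 in Sample A (adjusted p = 0.0497 with the block, 0.1 without), and neither Sample A array was above background.

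**Figure D1:**
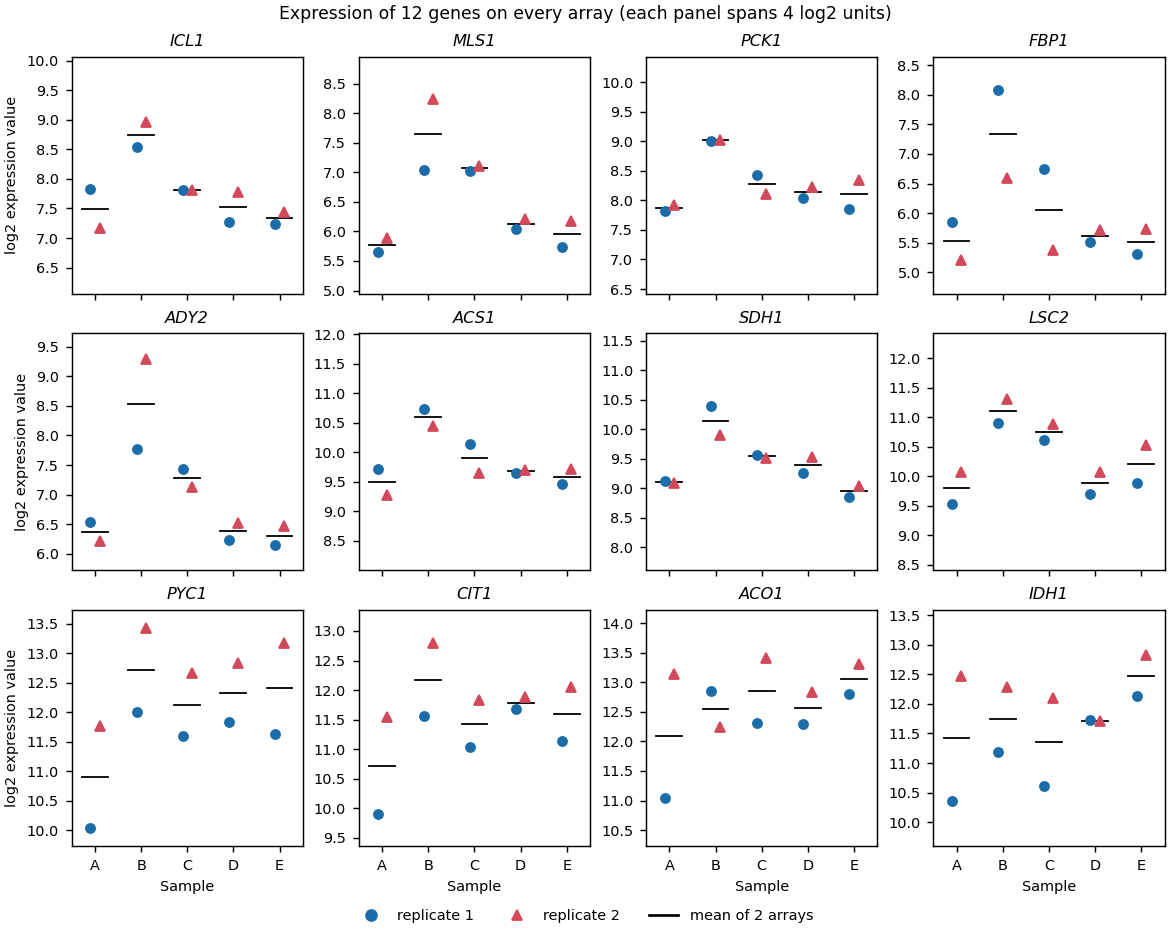
Log2 expression values (y axes, 4 log2 units in every panel) of 12 genes in Samples A to E (x axes). Circles are replicate 1, triangles replicate 2 and bars the mean of both arrays. ICL1, MLS1, PCK1, FBP1, ADY2, ACS1, SDH1 and LSC2 had their highest mean in Sample B, whereas PYC1, CIT1, ACO1 and IDH1 had replicate 1 of Sample A as their lowest array.

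None of the 17 citric acid cycle genes passed without the block in Sample B, and 5 of them were higher with it (of all genes, 3.51% without the block and 8.11% with it). LSC2, the beta subunit of succinyl-CoA ligase, read 10.90 and 11.30 in Sample B, against 9.53 and 10.07 in Sample A. It differed by 1.30 ± 0.32, with 1.37 in one batch and 1.23 in the other (adjusted p = 0.0594 without the block and 0.0078 with it). SDH1, the flavoprotein subunit of succinate dehydrogenase, read 10.39 and 9.91 in Sample B, against 9.13 and 9.09 in Sample A, so that the groups did not overlap (difference 1.04 ± 0.25, adjusted p = 0.052 without the block and 0.0295 with it). KGD1, the dehydrogenase component of the alpha-ketoglutarate dehydrogenase complex, read 10.90 and 11.19 in Sample B, against 10.17 and 10.27 in Sample A (difference 0.82 ± 0.23, adjusted p = 0.0863 and, with the block, 0.0344).

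The other subunits of these enzymes also had higher means in Sample B, without passing either fit. SDH2, the iron-sulphur subunit, differed by 0.86 ± 0.26 (adjusted p = 0.101, and 0.0514 with the block), SDH4, a membrane anchor, by 1.02 ± 0.37 (0.176, and 0.0603 with the block) and SDH3, the other anchor, by 0.64 ± 0.29 (0.268 and 0.137). KGD2, the succinyltransferase component, differed by 0.67 ± 0.24 (0.164 and 0.088). LPD1, the lipoamide dehydrogenase that is shared with pyruvate dehydrogenase, differed by 0.35 ± 0.27, and LSC1, the alpha subunit paired with LSC2, by 0.18 ± 0.23. For LPD1 and LSC1 the groups overlapped, LSC1 reading 12.25 and 12.63 in Sample B, against 12.22 and 12.29 in Sample A. FUM1, encoding fumarase, stayed close to Sample A, with differences of −0.08 in replicate 1 and −0.16 in replicate 2.

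For aconitase and isocitrate dehydrogenase the batches differed in direction. ACO1, encoding aconitase, read 12.85 and 12.24 in Sample B, against 11.04 and 13.14 in Sample A. The batch differences were therefore 1.81 in replicate 1 and −0.90 in replicate 2, and the difference of 0.45 ± 0.65 was not called (adjusted p = 0.755, and 0.631 with the block). IDH1 and IDH2, the subunits of NAD-dependent isocitrate dehydrogenase, differed by 0.32 ± 0.72 and 0.46 ± 0.68, each higher in replicate 1 and lower in replicate 2 of Sample B.

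**Figure D2:**
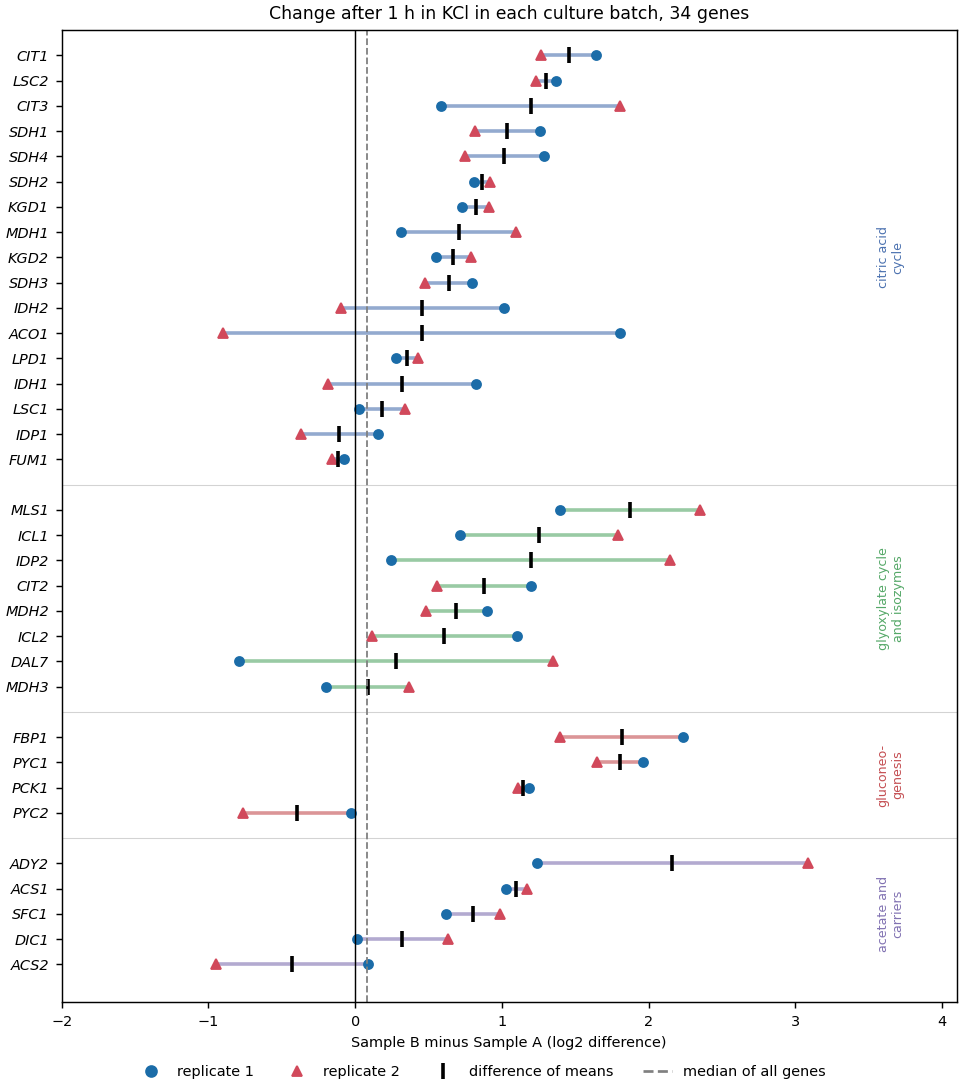
Difference between Sample B and Sample A (x axis, log2) for each of the 34 genes (y axis), grouped by pathway and ordered by the difference of means. Circles give replicate 1, triangles replicate 2, vertical ticks the difference of the group means and the dashed line the median of all genes (0.08). MLS1, ADY2, FBP1 and PYC1 lay well to the right of the dashed line in both batches, while ACO1, IDH1, IDH2 and DAL7 lay on opposite sides of 0.

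Several steps are catalysed by isozymes in separate compartments, and their changes in Sample B were set side by side. These are differences between changes, since levels of different probe sets cannot be compared, and with 4 arrays the smallest p an exact permutation test allows is 0.333. Citrate synthase is encoded by CIT1 (mitochondrial), CIT2 (peroxisomal) and CIT3 (mitochondrial, also acting on propionyl-CoA). CIT1 read 11.55 and 12.80 in Sample B, against 9.91 and 11.54 in Sample A, and CIT2 read 11.70 and 12.79 in Sample B, against 10.51 and 12.23 in Sample A. In each batch CIT1 differed by more than CIT2, by a further 0.45 and 0.71. CIT3 read 6.80 and 7.85 in Sample B, against 6.21 and 6.04 in Sample A, and its difference of 1.20 ± 0.37 passed with the block (adjusted p = 0.0485). CIT1 also passed only with the block (1.45 ± 0.61, adjusted p = 0.227 without it and 0.0265 with it), whereas CIT2 passed neither fit (0.88 ± 0.62, 0.488 and 0.16).

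Malate dehydrogenase is encoded by MDH1 (mitochondrial), MDH2 (cytosolic) and MDH3 (peroxisomal). MDH1 read 11.15 and 12.31 in Sample B, against 10.84 and 11.21 in Sample A, with batch differences of 0.31 and 1.10. MDH2, a gluconeogenic enzyme, read 12.95 and 12.61 in Sample B, against 12.05 and 12.13 in Sample A. MDH3 read 11.49 and 12.13 in Sample B, against 11.69 and 11.77 in Sample A. Of these, MDH2 had non-overlapping groups, MDH1 and MDH3 overlapped, and none passed (adjusted p = 0.384 for MDH1, 0.123 for MDH2 and 0.902 for MDH3, or 0.15, 0.0788 and 0.856 with the block). Under median centring MDH3 changed sign, its difference of 0.09 becoming −0.06. The order of MDH2 and MDH1 differed between batches, the change of MDH2 minus that of MDH1 being 0.59 in replicate 1 and −0.62 in replicate 2.

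For ACS1 and ACS2, and for IDP2 and IDP1, the order of the changes was the same in both batches. ACS2, the acetyl-CoA synthetase used on glucose, read 12.54 and 11.63 in Sample B, against 12.45 and 12.58 in Sample A, and the change of ACS1 exceeded that of ACS2 by 0.94 and 2.12. IDP2, the cytosolic NADP-dependent isocitrate dehydrogenase, read 7.29 and 9.16 in Sample B, against 7.05 and 7.01 in Sample A. Its mitochondrial counterpart IDP1 read 12.67 and 12.37 in Sample B, against 12.51 and 12.74 in Sample A, so that the change of IDP2 exceeded that of IDP1 by 0.09 in replicate 1 and 2.52 in replicate 2. For IDP2 only replicate 2 of Sample B stood far from Sample A, and its difference of 1.20 ± 0.52 did not pass (adjusted p = 0.243, and 0.101 with the block).

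DAL7, a malate synthase linked to allantoin breakdown, read 7.36 and 9.02 in Sample B, against 8.16 and 7.66 in Sample A. It lay on opposite sides of Sample A in the batches, while MLS1 was higher in both, and the change of MLS1 exceeded that of DAL7 by 2.19 and 1.00. ICL2, a mitochondrial methylisocitrate lyase, read 9.78 and 9.47 in Sample B, against 8.68 and 9.35 in Sample A. The order of ICL1 and ICL2 differed between batches, the change of ICL1 minus that of ICL2 being −0.38 in replicate 1 and 1.68 in replicate 2.

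The pyruvate carboxylases make oxaloacetate from pyruvate in the cytosol and are encoded by PYC1 and PYC2. PYC1 read 12.00 and 13.42 in Sample B, against 10.04 and 11.77 in Sample A. The higher Sample A array came close to the lower Sample B array without crossing it, and within a batch Sample B was higher by 1.96 and 1.65. PYC1 was called with the block (log2 difference 1.81, SE 0.25, adjusted p = 0.0045) and not without it (SE 0.76, adjusted p = 0.232). With the block it was also called in each of the 10 fits that left out a single array. PYC2 read 11.82 and 10.76 in Sample B, against 11.85 and 11.53 in Sample A, and was not called (−0.40 ± 0.35, adjusted p = 0.586, and 0.51 with the block). The change of PYC1 exceeded that of PYC2 by 1.99 and 2.42. The exact permutation p was 0.667, where the smallest possible was 0.333. That test ignores the culture batches and could not decide whether the changes differed. DIC1, the mitochondrial dicarboxylate carrier, read 9.88 and 11.64 in Sample B, against 9.86 and 11.01 in Sample A, and was not called either (0.32 ± 0.60, adjusted p = 0.82).

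Next, the genes that supply, regulate or degrade these enzymes were examined. Of 16 genes for pyruvate and acetyl unit supply, 3 were higher in Sample B and none lower, and with the block 3 were higher and 1 lower (of all genes, 3.51% higher and 0.899% lower, and with the block 8.11% and 2.59%). MPC3, the pyruvate carrier subunit used in respiratory growth, read 11.61 and 13.19 in Sample B, against 7.53 and 7.18 in Sample A (32.9-fold, adjusted p = 0.00707). CRC1, the mitochondrial carnitine carrier, was 6.49-fold higher (adjusted p = 0.00707, with replicate 1 of Sample A not above background), and JEN1, a lactate and pyruvate permease, 3.10-fold higher (adjusted p = 0.0318). MPC3 was also higher in Sample C than in Sample A, with the block only (log2 difference 3.39, adjusted p = 0.104 without it and 0.0203 with it). MPC1 and MPC2, the other carrier subunits, differed by 0.00 and −0.10 in Sample B. MAE1, the mitochondrial malic enzyme, was lower with the block (−1.08 ± 0.28, adjusted p = 0.0446 with it and 0.0863 without it).

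Of 22 regulators, 2 were higher and none lower in Sample B with or without the block (of all genes, 3.51% were higher without it and 8.11% with it). ADR1, an activator of glucose-repressed genes, read 9.93 and 9.67 in Sample B, against 7.56 and 7.52 in Sample A (log2 difference 2.26 ± 0.35, adjusted p = 0.0145). CAT8, the activator of gluconeogenic genes, read 7.16 and 7.86 in Sample B, against 5.49 and 5.56 in Sample A (1.98 ± 0.37, adjusted p = 0.0244), where replicate 1 of Sample A was not above background (5.68). SIP4, a second activator of the same promoters, read 6.12 and 8.86 in Sample B, against 5.65 (not above background) and 5.78 in Sample A, and was not called (adjusted p = 0.207, and 0.0873 with the block). HAP4, the regulatory subunit of the Hap complex, lay on opposite sides of Sample A, at 11.10 and 8.27 in Sample B against 9.46 and 9.51 in Sample A.

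None of 10 paralogues and assembly factors of cycle enzymes passed without the block, and SDH6 and SHH4 were higher with it, where 8.11% of all genes were. SDH6, a succinate dehydrogenase assembly factor, read 9.53 and 11.59 in Sample B, against 7.46 and 8.65 in Sample A (log2 difference 2.51, adjusted p = 0.0886 and, with the block, 0.00374). SHH4, a paralogue of SDH4, differed by 1.09 (adjusted p = 0.0401 with the block), and IDP3, the peroxisomal isocitrate dehydrogenase, by 1.44 (0.064 with the block). Among 6 other mitochondrial carboxylate carriers only ODC1, an oxodicarboxylate carrier, was called, and only with the block (0.88, adjusted p = 0.0388, with 8.11% of all genes higher), while OAC1, an oxaloacetate carrier, differed by −0.79 and YHM2, a citrate carrier, by −0.42. Of 8 genes of the Gid ubiquitin ligase, which marks gluconeogenic enzymes such as fructose bisphosphatase for degradation, none passed without the block and 3 were higher with it, against the same 8.11% of all genes. These were VID24 (1.17), GID8 (1.14) and FYV10 (1.10).

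The second comparison addressed cells adapted to KCl. In Sample C, 0 of 34 genes were called against Sample A with or without the block (0.0184% of all genes were called without it and 0.771% with it), and 2 had an unadjusted p under 0.05 (4.68% of all genes). Group means were 1.8-fold or more above Sample A for 5 genes, LSC2, MLS1, PYC1, ADY2 and DIC1, where 3.89% of all genes were. MLS1 read 7.03 and 7.10 in Sample C, against 5.65 and 5.90 in Sample A, so that both arrays remained above normal growth (difference 1.29 ± 0.37, adjusted p = 0.503, and 0.123 with the block). LSC2 read 10.61 and 10.88 in Sample C, against 9.53 and 10.07 in Sample A (0.94 ± 0.32, adjusted p = 0.688 and 0.111). The median difference over the 34 genes was 0.23, against −0.01 over all genes.

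Set directly against Sample B, no pathway gene was called in Sample C (0.0% of all genes without the block and 0.0184% with it), and 10 had an unadjusted p under 0.05 (10.3% of all genes). Both Sample C arrays lay below both Sample B arrays for 15 of 34 genes (19.1% of all genes), and 5 genes were 1.8-fold or more lower (8.37% of all genes). FBP1 read 6.74 and 5.38 in Sample C, against 8.08 and 6.60 in Sample B, and ICL1 read 7.81 on both Sample C arrays, against 8.54 and 8.96 in Sample B. Their differences of −1.28 ± 0.56 and −0.94 ± 0.31 did not pass (adjusted p = 0.478 and 0.366, or 0.242 and 0.195 with the block). PCK1 read 8.43 and 8.11 in Sample C, against 9.01 and 9.02 in Sample B (−0.75 ± 0.25, adjusted p = 0.374).

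The third comparison followed the removal of KCl. No pathway gene was called in Sample D against Sample A or against Sample C, with or without the block. Of all genes, 0.0% were called against either sample without the block, and 0.239% (against Sample A) and 0.0184% (against Sample C) with it. Against Sample A, 3 genes were 1.8-fold or more higher, CIT1, CIT2 and PYC1 (3.06% of all genes). CIT1 read 11.67 and 11.88 in Sample D, against 9.91 and 11.54 in Sample A. CIT2 read 12.29 and 12.60 in Sample D, against 10.51 and 12.23 in Sample A. For both, most of the gap lay in replicate 1, where the Sample A array was low. MLS1 read 6.04 and 6.21 in Sample D, PCK1 read 8.05 and 8.23, ADY2 6.22 and 6.53, FBP1 5.51 and 5.71, and ICL1 7.26 and 7.78. These 5 genes differed from Sample A by at most 0.35, and none was called. PYC1 read 11.84 and 12.82 in Sample D, against 10.04 and 11.77 in Sample A (1.43 ± 0.76, adjusted p = 1 and, with the block, 0.0911). Set against Sample C, 4 genes were 1.8-fold or more lower in Sample D, MLS1 (−0.94), ADY2 (−0.90), DIC1 (−0.88) and LSC2 (−0.86), where 2.53% of all genes were. Only CIT2 was 1.8-fold higher (1.54% of all genes), with a difference of 1.01 ± 0.62 (adjusted p = 1 and, with the block, 0.473) and values of 12.29 and 12.60 in Sample D, against 10.81 and 12.07 in Sample C.

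Samples B and D were both taken 1 h after a change of medium, into KCl and out of it, and were compared directly. Without the block 0.0% of all genes, and none of the 34, were called. With it, 3 of 34 genes were lower in Sample D, against 2.88% of all genes called lower. ADY2 differed by −1.55 in replicate 1 and −2.77 in replicate 2 (mean −2.16, adjusted p = 0.0391). MLS1 read 6.04 and 6.21 in Sample D, against 7.05 and 8.25 in Sample B (mean difference −1.52, adjusted p = 0.0395), and LSC2 differed by −1.20 and −1.22 (mean −1.21, adjusted p = 0.0316). Without the block their adjusted p-values were 0.0855, 0.136 and 0.161. In all, 20 of 34 genes had both Sample D arrays below both Sample B arrays (29.0% of all genes), 9 were 1.8-fold or more lower (10.8% of all genes), and the median difference was −0.56 over the 34 genes and −0.22 over all genes. PYC1 and CIT1 were nearer to their Sample B level, with differences of −0.38 ± 0.76 and −0.40 ± 0.61.

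**Figure D3:**
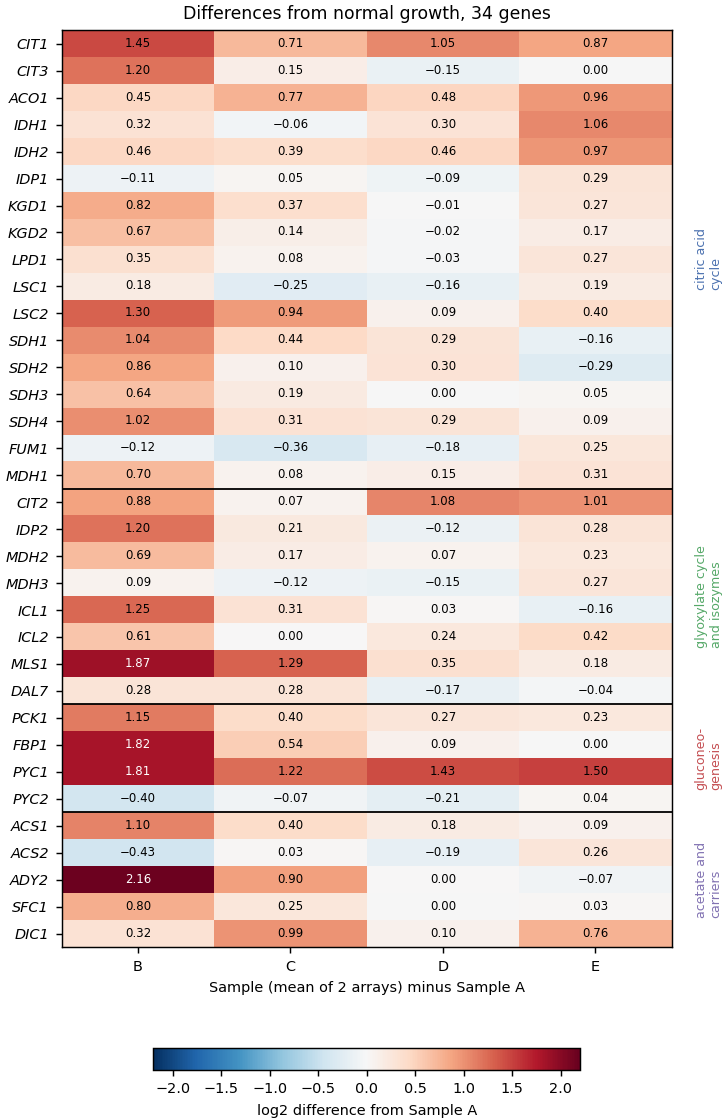
Log2 difference of the group means from Sample A (colour and printed number) for the 34 genes (rows, by pathway) in Samples B, C, D and E (columns). The column of Sample B holds the largest differences, led by ADY2 (2.16), MLS1 (1.87) and FBP1 (1.82), whereas PYC1 stayed between 1.22 and 1.81 in all 4 columns.

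In recovered cells, 0 of 34 genes were called in Sample E against Sample A or against Sample D. Of all genes, 0.0% were called against Sample A with or without the block, and 0.0% and, with the block, 0.0184% against Sample D. Group means were 1.8-fold or more higher than in Sample A for 6 of 34 genes, CIT1, ACO1, IDH1, IDH2, CIT2 and PYC1, compared with 1.63% of all genes. ACO1 differed by 1.76 in replicate 1 and 0.17 in replicate 2, IDH1 by 1.78 and 0.35, and CIT2 by 1.72 and 0.29. For these 3 the arrays of replicate 1 carried the difference. IDH2 read 12.88 and 13.59 in Sample E, against 11.21 and 13.32 in Sample A. CIT1 read 11.14 and 12.05 in Sample E, against 9.91 and 11.54 in Sample A. Both also differed more in replicate 1. All 6 genes had replicate 1 of Sample A below replicate 2 by 1.5 or more. PYC1 read 11.64 and 13.17 in Sample E, against 10.04 and 11.77 in Sample A, a difference of 1.60 and 1.40 within the batches (1.50 ± 0.76, adjusted p = 1, and 0.538 with the block). The glyoxylate and gluconeogenic enzymes lay close to Sample A, with differences of 0.18 ± 0.37 for MLS1, −0.16 ± 0.31 for ICL1, 0.23 ± 0.25 for PCK1 and 0.00 ± 0.56 for FBP1. These comparisons share the Sample A arrays, so that a low or high Sample A array enters each of them.

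Over the whole regime, Sample B held the highest of the 5 group means for 22 of the 34 genes, Sample E for 9, Sample C for 2, Sample D for 1 and Sample A for none. Over all genes Sample A held the highest mean of 12.8%, Sample B of 39.5%, Sample C of 7.16%, Sample D of 2.02% and Sample E of 38.5%. The 9 genes highest in Sample E were ACO1, IDH1, IDH2, IDP1, LSC1, FUM1, MDH3, PYC2 and ACS2, none of which was called in any comparison. FBP1, ADY2, ICL1, SDH1 and SDH2 had their lowest mean in Sample E.

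A set of these genes differed between the culture batches under normal growth. In Sample A, replicate 2 exceeded replicate 1 by 1.5 or more for 6 of 34 genes, whereas 0.771% of all genes (42 of 5449) did so. The genes were singled out after their values had been seen, and no test was made. They were ACO1 (13.14 and 11.04 on replicates 2 and 1), IDH1 (12.48 and 10.36), IDH2 (13.32 and 11.21), CIT1 (11.54 and 9.91), CIT2 (12.23 and 10.51) and PYC1 (11.77 and 10.04). Aconitase, isocitrate dehydrogenase and CIT1 carry out the first steps of the cycle as far as alpha-ketoglutarate, and these genes and CIT2 are known targets of the retrograde regulators Rtg1 and Rtg3.

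In Sample C the same 6 genes were again higher on replicate 2, by 0.80 (CIT1) to 1.49 (IDH1). In Sample D they differed by −0.02 (IDH1) to 0.98 (PYC1), and in Sample E by 0.29 (CIT2) to 1.53 (PYC1). In Sample B, ACO1 was lower on replicate 2 (−0.61), while the other 5 were higher by 0.99 to 1.42, with a median over all genes of 0.53. Between the Sample A arrays the transcripts of RTG1, RTG2 and RTG3 differed by −0.05, −0.14 and 0.00. Whether these regulators had a part in the batch difference was not tested. The later enzymes of the cycle differed less in Sample A, by 0.11 for KGD1, 0.09 for KGD2, 0.54 for LSC2, −0.04 for SDH1 and 0.16 for FUM1.

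**Figure D4:**
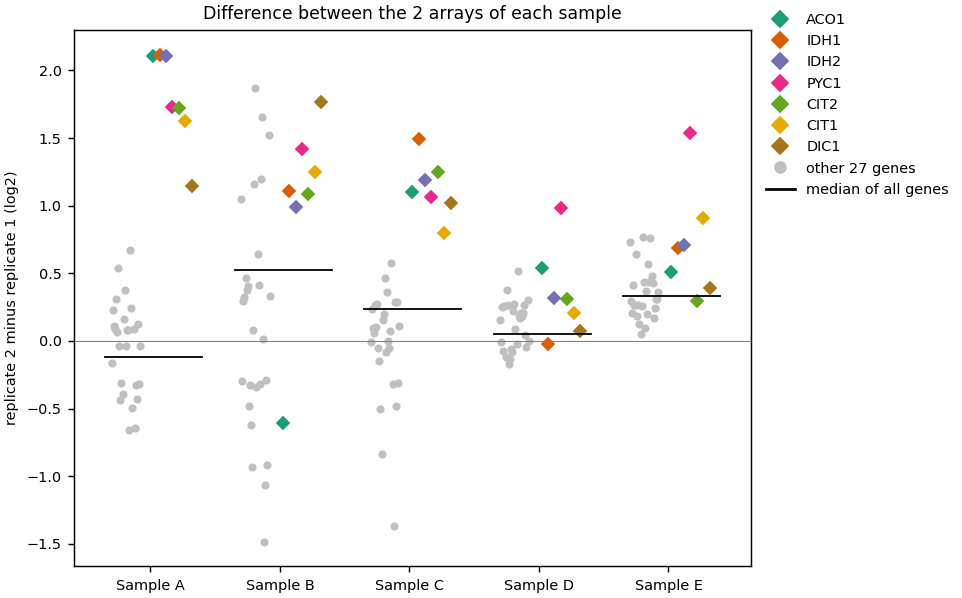
Replicate 2 minus replicate 1 (y axis, log2) within each sample (x axis). Diamonds are the 6 genes that differed by 1.5 or more in Sample A and DIC1, grey circles the other 27 genes and horizontal bars the median of all genes; in Sample A 6 of the diamonds lie at 1.63 to 2.12, above all grey circles.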

How the data were processed

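Expression was measured on 10 Affymetrix Yeast Genome 2.0 arrays, 2 per sample. Per the labels and the methods, the authors made the deposited log2 values in Expression Console from Affymetrix by RMA (robust multi-array averaging), which corrects background, normalizes arrays and summarises each probe set. Neither the program's version nor whether all arrays were normalized together is stated in the sources. Array medians over genes ranged from 9.59 to 10.19, so a shift of a whole array can enter any difference.

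S. cerevisiae probe sets (5498) were matched by gene identifier through the platform annotation and the RefSeq gene table. For 47 genes with several probe sets the one with the highest mean was kept, leaving 5449 genes. Of 66 other pathway genes sought, 62 were measured, and the other 4 were not analysed here.

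The comparisons used limma 3.58.1 in R 4.3.3, with 1 coefficient per sample over all 10 arrays, eBayes and two-sided Benjamini-Hochberg adjustment over 5449 genes. The fit was checked on simulated arrays with independent noise, the same spread in every sample and no batch effect. That check does not cover the wider spread of Sample B or the culture batches. SEs rest on a spread shared by all samples, which understates that of Sample B. Per the methods, the replicate cultures were grown on separate occasions. That arrays with the same replicate number came from the same culture was inferred from the numbering in the labels. The block and every value given by batch rest on this inference. Deviations of same-numbered arrays from their group means correlated at 0.22 to 0.52 (median 0.43) over 10 pairs of samples. These correlations are over all genes. The lowest, 0.22, was for Samples B and A, so by this measure the pairing was weakest in the first comparison. The fit with the replicate number as a block is given beside the other where it changes a call. Members, lists and tests were chosen with earlier results of these data known. Arrays were given for members called in either fit (the 10 smallest adjusted p-values where the block was needed), ICL1, MLS1, PCK1, FBP1 and isozymes, and up to 3 genes per pathway list were named by smallest adjusted p in Sample B. MPC1, MPC2, MAE1, HAP4, the RTG genes and the genes of the batch difference were chosen after seeing their values.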

Additional observations from a re-analysis of the deposited data

How the results depend on the processing

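For Sample B against Sample A, 240 genes were called (191 higher and 49 lower). The replicate block gave 583 (442 and 141), quantile normalization 496 (261 and 235), median centring 453 (293 and 160) and a fit on these 2 groups alone 11. The share of calls that were higher was 79.6% as deposited, 52.6% after quantile normalization and 64.7% after centring, and the median of all genes moved by 0.16 and 0.14. The 34 genes exceeded that median by 0.67 as deposited and 0.71 after quantile normalization. Centring shifts all genes of an array alike, so it leaves this excess at 0.67 by construction. Of the 34 genes, 3 were higher, 13 with the replicate block, 0 in the 2 groups alone, and 5 after quantile normalization or centring. MLS1 and ADY2 passed in all these but the 2-group fit, where their adjusted p-values were 0.281 and 0.273, and PCK1 also failed with a trend and robust eBayes (0.0751). Leaving out an array gave 0 to 16 (with the block 2 to 19), and 0 to 1848 genes in all (131 to 2025). Without any 1 array of Samples A, C, D or E no member was called. Without a Sample B array, which left 1 array in that group, more members were called higher than with all arrays. On replicate 2 of Sample B alone ACS2 (11.63, against 12.45 and 12.58 in Sample A) and PYC2 (10.76, against 11.85 and 11.53) were lower.

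Genes called in the other comparisons were few, and several fits moved them. Sample C against Sample A had 1, with 42 under the block, 187 in the 2 groups alone, 0 after quantile normalization, 15 with a trend and robust eBayes, and 0 to 95 without an array (1 to 263 with the block). Sample D against Sample A had 0, with 13 under the block, 7 in the 2 groups alone and 0 to 35 without an array (0 to 148). Sample E against Sample A had 0, with 33 in the 2 groups alone and 0 to 0 without an array (0 to 6). Sample C against Sample B had 0, with 1 under the block and 0 to 1333 without an array (0 to 1586). Sample D against Sample C had 0, with 1 under the block, 38 in the 2 groups alone and 0 to 42 without an array (0 to 204). Sample E against Sample D had 0, with 1 under the block, 117 in the 2 groups alone and 0 to 2 without an array (0 to 48). Sample D against Sample B had 0, with 167 under the block, 33 with a trend and robust eBayes and 0 to 1889 without an array (0 to 2093). Its members called lower were 0, with 3 under the block and 0 to 12 without an array (0 to 14). The cause of these differences was not tested.

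Members 1.8-fold or more higher numbered 13 to 20 in Sample B without an array, 3 to 9 in Sample C (2 at 2-fold), 0 to 6 in Sample D and 0 to 7 in Sample E (3 at 2-fold and 3 after centring). For the 33 differences of members and pathway genes called in either fit, 891 alternative values kept their direction, 656 kept their side of the threshold, 178 passed it anew and 57 no longer did. Direction could not change in many of these values. The block, the 2-group fit, the low-value filter, other eBayes settings and leaving out an array of another sample keep the difference of means as it is. The leave-one-out fits with the block were added after seeing the data. A count of promoter motifs in another window was not run. The number of arrays limits every value, and SFC1, FBP1 and MLS1 were near background on some arrays.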
